A study of Mus musculus with 12 samples.

Results

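Cytosolic ribosomal protein genes encode the proteins of the large and the small subunit of the ribosome that translates nuclear messages. They were taken as the protein-coding genes of mouse build GRCm38 whose symbols begin with Rpl or Rps and a number, together with Rplp0, Rplp1, Rplp2 and Rpsa. Pseudogenes, names ending in -ps and the Rps6k kinases were left out. The rule gave 89 genes of 21631 protein-coding genes on chromosomes 1 to 19 and X. Of these, 77 are core ribosomal proteins, 46 of the large and 31 of the small subunit. Another 10 are paralogs of core genes, and 2 carry a matching name without being ribosomal proteins: Rps19bp1, which encodes a protein that binds Rps19, and the retrogene Rps23rg1. Fau, whose product is fused to a ribosomal protein, falls outside the symbol rule.

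ATAC-seq, which marks accessible DNA by the insertion of adapters with a transposase, had been run on mouse aortic endothelial cells (MAECs), the lining cells of the large artery in which plaques form. The groups were CDM-CDO, WDM-CDO, CDM-WDO and WDM-WDO, with 2 samples each, where M was read as the diet of the mothers, O as that of the offspring, and CD and WD as the 2 diets. The animals of both WDO groups had received WD again for 4 weeks. The sources used here give neither strain, sex nor age of the animals. A further 4 samples, of the histone mark H3K27ac, were not analysed here. Each group had 1 deposited peak list, so no difference between groups has a replicate check and none carries a p-value. The peak names of both CDO lists hold the tag 08w and those of both WDO lists the tag 12w. The sources used here do not say what the tag counts, and it cannot be told apart from the diet of the offspring.

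The lists held 18962 to 28319 peaks, with the fewest in CDM-WDO and the most in WDM-CDO, and the median pileup at their summits was 31 to 39 reads. Of 12 endothelial marker genes, 3, 5, 5 and 3 had a peak within 1 kb of a start, in the order CDM-CDO, WDM-CDO, CDM-WDO and WDM-WDO, which all values below follow. The junction genes Pecam1 and Cdh5 had none at a start in any list, while a peak within 1 kb of the span of Cdh5 was present in every list but CDM-CDO. Macrophage markers had one at 4, 4, 3 and 11 of 12 genes and lymphocyte markers at 9, 9, 1 and 7 of 12. Smooth muscle markers had one at 3, 2, 1 and 1 of 9 genes and fibroblast markers at 1, 2, 1 and 2 of 8. Within 1 kb of the span, peaks were present at 6, 9, 10 and 8 endothelial, 7, 7, 5 and 11 macrophage and 9, 10, 3 and 8 lymphocyte markers. For smooth muscle these were 3, 2, 1 and 1, and for fibroblasts 3, 4, 3 and 4. By either window, marker peaks of white blood cells thus moved between the groups, and their part in the results below was not tested. In such bulk samples, more cells of a type with an open site and a more open site in each cell cannot be told apart.

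Ribosomal proteins are made in matched amounts and assembled with ribosomal RNA in the nucleolus, and nearly every cell transcribes their genes at a high rate. Their promoters in mammals usually lack a TATA box and begin transcription at a C within a stretch of pyrimidines. Messages that begin with such a 5′ terminal oligopyrimidine tract are those whose translation responds to the growth regulator mTOR. Binding sites of ETS factors such as GABP, of SP1 and of YY1 have been described near these starts, as has the palindrome TCTCGCGAGA.

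Promoter sequences of 250 bases before to 50 bases from the start came from RefSeq for GRCm38.p6. They were matched by gene identifier for 69 of the 89 genes, 57 of them core genes. Stretches from 60 bases before to 30 bases from the start are shown 5′ to 3′ on the strand of the gene. The first set holds genes with the octamer TCTCGCGA, read on either strand, and spans the strongest peak of the family (Rps19) and some of its weaker ones (Rpl26, Rps28 and Rpl12). Capitals mark TCTCGCGA and the ETS motif CCGGAAG on either strand. Where TCTCGCGA stands on both strands in overlap, it reads TCTCGCGAGA. The Rps19 stretch is chr7:24884532-24884621, plus strand. The Rpl12 stretch is chr2:32961652-32961741, plus strand. The Rpl26 stretch is chr11:68901506-68901595, plus strand. The Rps28 stretch is chr17:33824533-33824622, minus strand.
Rps19: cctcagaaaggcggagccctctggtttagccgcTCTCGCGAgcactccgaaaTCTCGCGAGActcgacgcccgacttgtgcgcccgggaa
Rpl12: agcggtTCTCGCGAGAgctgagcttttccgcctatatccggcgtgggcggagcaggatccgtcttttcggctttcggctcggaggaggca
Rpl26: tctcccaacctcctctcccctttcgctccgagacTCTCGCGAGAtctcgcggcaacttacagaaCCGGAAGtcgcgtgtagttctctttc
Rps28: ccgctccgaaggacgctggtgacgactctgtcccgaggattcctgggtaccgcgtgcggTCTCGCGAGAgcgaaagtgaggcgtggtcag

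The second set shows pyrimidine tracts at or near the start. Runs of at least 8 pyrimidines are in capitals where they reach into the bases from 10 before the start onward. In Rpl11 the run is the last 17 bases shown and lies downstream of the annotated first base, which is A. Runs further upstream are left in lower case. Rps10 is included since it is one of the core genes without a peak in 1 list. The Rpl11 stretch is chr4:136053364-136053453, minus strand. The Rpl38 stretch is chr11:114668520-114668609, plus strand. The Rps6 stretch is chr4:86857338-86857427, minus strand. The Rps10 stretch is chr17:27635215-27635304, minus strand.
Rpl11: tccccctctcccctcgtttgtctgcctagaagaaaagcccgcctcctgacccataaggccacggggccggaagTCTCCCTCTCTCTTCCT
Rpl38: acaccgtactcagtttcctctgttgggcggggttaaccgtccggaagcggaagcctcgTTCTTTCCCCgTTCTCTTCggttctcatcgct
Rps6: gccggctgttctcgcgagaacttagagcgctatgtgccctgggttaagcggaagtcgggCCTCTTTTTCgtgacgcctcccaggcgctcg
Rps10: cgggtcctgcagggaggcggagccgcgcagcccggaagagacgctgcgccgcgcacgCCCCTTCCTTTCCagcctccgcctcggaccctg

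The third set holds 3 of the genes whose peaks differed most between lists. Capitals again mark TCTCGCGA and CCGGAAG on either strand. The Rpl5 stretch is chr5:107900468-107900557, plus strand. The Rps7 stretch is chr12:28635924-28636013, minus strand. The Rps4x stretch is chrX:102189362-102189451, minus strand.
Rpl5: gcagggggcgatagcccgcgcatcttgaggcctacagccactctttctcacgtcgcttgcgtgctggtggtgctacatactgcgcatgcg
Rps7: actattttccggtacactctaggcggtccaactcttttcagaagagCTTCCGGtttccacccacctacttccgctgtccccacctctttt
Rps4x: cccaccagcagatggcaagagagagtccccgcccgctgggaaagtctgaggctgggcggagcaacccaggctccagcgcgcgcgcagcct
Of these, only the Rps7 stretch holds either motif, as CTTCCGG on the reverse strand, so neither motif was common to the 3.

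Among the 57 core promoters of 300 bases, CCGGAAG on either strand stood in 23 (40.4%), against 12% of all 17274 promoters in the table. TCTCGCGA stood in 10 (17.5%) against 1.53%: Rpl7a, Rpl12, Rpl26, Rpl27a, Rpl35, Rps3a1, Rps6, Rps15a, Rps19 and Rps28. A run of at least 8 pyrimidines between 10 bases before and 30 bases from the start was found in 23 core genes (40.4%) against 14.2%. The annotated first base was C in 20 (35.1%) against 13.9%. The core promoters thus held the ETS motif, the octamer TCTCGCGA and the tract at a larger share than promoters at large. The SP1 motif GGGCGG was in 59.6% against 46.9%, the CRE motif TGACGTCA in 8.77% against 2.37%, and the YY1 motif AAGATGGC in 7.02% against 3.25%. TATAAA was in 8.77% against 13.4%, CCAAT in 31.6% against 39.4% and the E box CACGTG in 8.77% against 7.99%, all searched on both strands. Median GC content was 58% against 56.3%. The promoters of mitochondrial ribosomal proteins, which serve the separate ribosome of that organelle, were close to the core genes for CCGGAAG (36.2% of 69) but held TCTCGCGA in 1.45% and the tract in 13%. A match of letters is a description and not a bound site.

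A peak lay within 1 kb of the span of 85, 83, 80 and 83 of the 89 genes, in the order given above. Among all protein-coding genes the shares were 57.2%, 61.2%, 49.9% and 58.2%. A peak within 1 kb of a start, called a start peak, was present for 83, 81, 78 and 81 of the 89, against 49.4%, 52.5%, 41.4% and 48.8% of all genes. For the 20 genes without a start in the promoter table, either end of the gene stood in for it. Of the 77 core genes, 75 had a peak in CDM-WDO and all had one in the other lists. The core genes were thus open in every group almost without exception. All 46 large-subunit genes and 29 of 31 small-subunit genes had a peak in all 4 lists. Over all core genes this was 75 of 77 (97.4%), and over all protein-coding genes 44.6%.

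**Figure D1:**
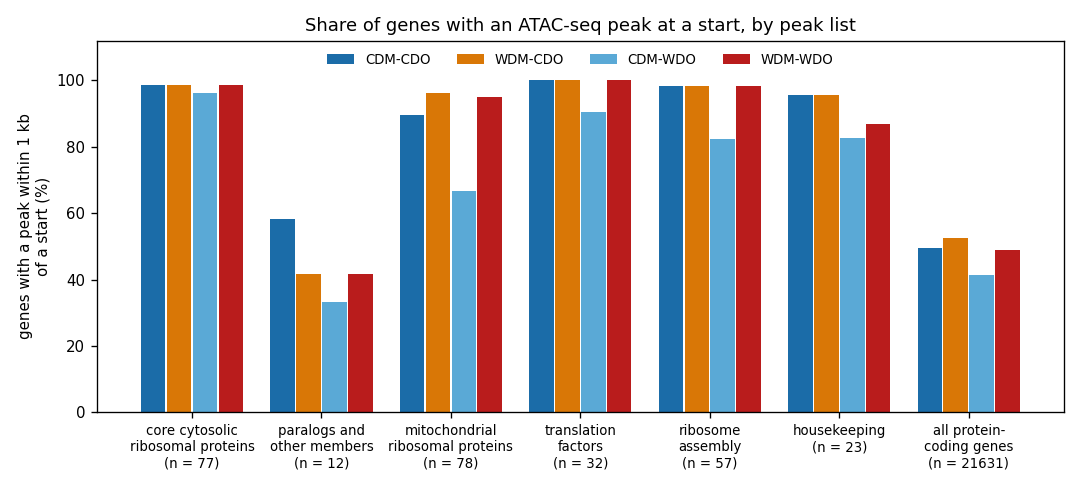
Share of genes (vertical axis, %) with a peak within 1 kb of a start in each of the 4 peak lists (bar colours), for core cytosolic ribosomal protein genes, their paralogs and other members, 4 comparison sets and all protein-coding genes. Core genes stay at 74 to 76 of 77 in every list, while the share of all genes is lowest in CDM-WDO at 41.4%.

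The exception among core genes at their starts in all lists was Rpl17, a large-subunit protein at the exit of the peptide tunnel, which has no entry in the promoter table. Its peak lay inside the gene on chromosome 18, more than 1 kb from either end, in all 4 lists, with −log10 q of 19.01, 29.9, 6.95 and 12.3. The −log10 q is the authors' own score for a peak and grows with depth as well as with enrichment. It was lowest in CDM-WDO here, as for most of the family.

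Both core genes without a peak in 1 list belong to the small subunit, and both lacked it in CDM-WDO. Rps10, a protein of the head of the small subunit, had a peak over its start at chr17:27634982-27635500 in CDM-CDO, with a pileup of 42 reads and −log10 q of 12.03. In WDM-CDO the peak held 75 reads with −log10 q of 30.5, and in WDM-WDO 73 reads with −log10 q of 25.1. In CDM-WDO the nearest peak lay 11419 bp away. In each of these 3 lists Rps10 lay below the core median of −log10 q (27.5, 43.1 and 35.2). Scaled by the median ratio over all genes, those pileups correspond to 34.9 to 50.1 reads in CDM-WDO, where peaks were called from 15 reads upward and 23.2 to 48.3% of start peaks lay below such a value.

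Rps4x, the X-linked gene of a small-subunit protein, had a peak at chrX:102188959-102189403 with 34 reads in CDM-CDO, 45 in WDM-CDO and 44 in WDM-WDO. Its −log10 q was 8.73, 13.7 and 14.3, among the weaker of the core genes. In CDM-WDO the nearest peak lay 31967 bp away, and the scaled pileups were 26.96 to 30.7 reads. Both missing calls thus stood at genes whose scaled pileup was above the lowest called one, and a gene without a listed peak is not shown to be closed. The lists do not give the local background or pileup where no peak was called, so the level in CDM-WDO is unknown.

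Counted between pairs of lists, at most 5 members were on 1 side only. A peak stood at 80 to 85 of the 89 in each list. Few members could thus gain one, and counts of 0 say little. No member had a peak in WDM-CDO without one in CDM-CDO, where the share of all genes was 6.45%. The reverse held for 2 (2.25%), close to the 2.38% of all genes. These were the paralogs Rpl10l and Rpl37rt. WDM-WDO alone had a peak at 3 when set beside CDM-WDO, against 11.8%, namely Rps10, Rps4x and Rps19bp1, and none the other way round, against 3.42%. For the diet of the offspring, 5 genes had a peak in CDM-CDO and not in CDM-WDO, against 10.8%, and none the reverse, against 3.54%. Between WDM-WDO and WDM-CDO no member was on 1 side, against 3.97% and 6.96% of all genes. The pairs share lists, so the same 3 genes missing in CDM-WDO enter 2 of them.

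Other genes of ribosome production and translation are given for comparison. Mitochondrial ribosomal protein genes had one at 70, 75, 52 and 74 of 78. Ribosome assembly factors, which process ribosomal RNA and build the subunits, had one at 56, 56, 47 and 56 of 57. Translation factors had one at 32, 32, 29 and 32 of 32, with Eif3g, Eif3i and Eif3l, subunits of initiation factor eIF3, missing in CDM-WDO. From CDM-CDO to CDM-WDO the core cytosolic genes thus went from 76 to 74 start peaks, and mitochondrial ribosomal protein genes from 70 to 52. The share of all genes went from 49.4% to 41.4%. In CDM-CDO the median pileup of start peaks was 55.5 reads for the mitochondrial set and 68 for core genes. The counts are descriptions of 1 list per group. Neither the difference between the sets nor the part of peak strength in it was tested. Fau had a start peak in all lists with −log10 q of 7.46, 22.8, 15.3 and 20.2.

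The paralogs and the other 2 members held peaks less often, with 5 of 12 in all 4 lists. Rpl22l1, a paralog of Rpl22, had −log10 q of 66.8, 68.9, 36.1 and 63.6. Rps27l, a paralog of Rps27 known as a p53 target, had 31.1, 63.1, 38.5 and 64.5. Rpl7l1, related to Rpl7, had 21.5, 24.2, 13.6 and 33.1. These values lay within the range of the core genes in each list. Rpl36al had 63.3, 72.5, 36.5 and 62.4, in a peak that also covers the neighbouring gene Mgat2. Rpl3l, the paralog known from striated muscle, had no peak at its own start, and the peak counted for it (16.6, 53.8, 13.9 and 41.0) stood at the start of Msrb1.

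Rpl32l, Rpl39l, Rps23rg1 and Rps27rt had no peak in any list. The retrogene Rpl10l, known from testis, had a weak peak in CDM-CDO of 18 reads and −log10 q of 3.20. Rpl37rt had one of 21 reads and −log10 q of 2.10, with its summit at −965 bp from the start, just inside the window. Rps19bp1 had −log10 q of 10.3 and 8.44 in both CDO lists and 12.7 in WDM-WDO, and none in CDM-WDO. The paralogs thus fell into openly accessible genes and genes with a weak or no peak. Of 310 loci with a matching symbol that are pseudogenes or of another non-coding type, a peak overlapped 2, 3, 2 and 1 (0.645%, 0.968%, 0.645% and 0.323%). A peak overlapped the span of 93.3%, 92.1%, 87.6% and 92.1% of the members. Reads that match a gene and its processed copies equally well can be lost or split in alignment, and the sources used here do not say how they were handled.

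Peaks of the family ranged widely in strength. Rps19, a small-subunit protein mutated in Diamond-Blackfan anaemia, shared the highest mean rank with Rps29. It had −log10 q of 115, 189, 105 and 152 and summit pileups of 194, 300, 186 and 247 reads. Its peak in CDM-CDO was at chr7:24883958-24884935, over the stretch with TCTCGCGA shown above. Rps29, a zinc-binding small-subunit protein, had −log10 q of 130, 161, 68.5 and 152. The next were the large-subunit genes Rpl37 (61.2, 130, 56.9 and 115), Rpl27 (68.9, 111.7, 49.2 and 75.7) and Rpl15 (61.3, 117, 47.6 and 80.6). Rps19 and Rps29 held the first 2 ranks of the family in every list.

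Among core genes with a start peak in all 4 lists, the weak end was held by Rpl23a, at the tunnel exit of the large subunit, with −log10 q of 6.20, 13.0, 4.42 and 8.78. Rps15 had 8.85, 14.97, 5.08 and 10.05, and Rpl18 had 7.12, 10.9, 6.98 and 14.2. Rpl6 had 11.2, 23.3, 3.57 and 7.65, and Rpl26 had 7.78, 17.8, 5.33 and 20.7. All 5 had a −log10 q under 7 in CDM-WDO. Over the members, Spearman's rho of −log10 q between the lists of a pair was 0.861 to 0.889 (78 to 81 genes), a description across genes that share their sequence and neighbourhood in all lists. The median −log10 q of core start peaks was 27.5, 43.1, 16.8 and 35.2, against 21.5, 30.9, 16.9 and 24.3 for all genes with a start peak. The median of core genes was therefore above that of all genes in 3 lists and level with it in CDM-WDO.

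**Figure D2:**
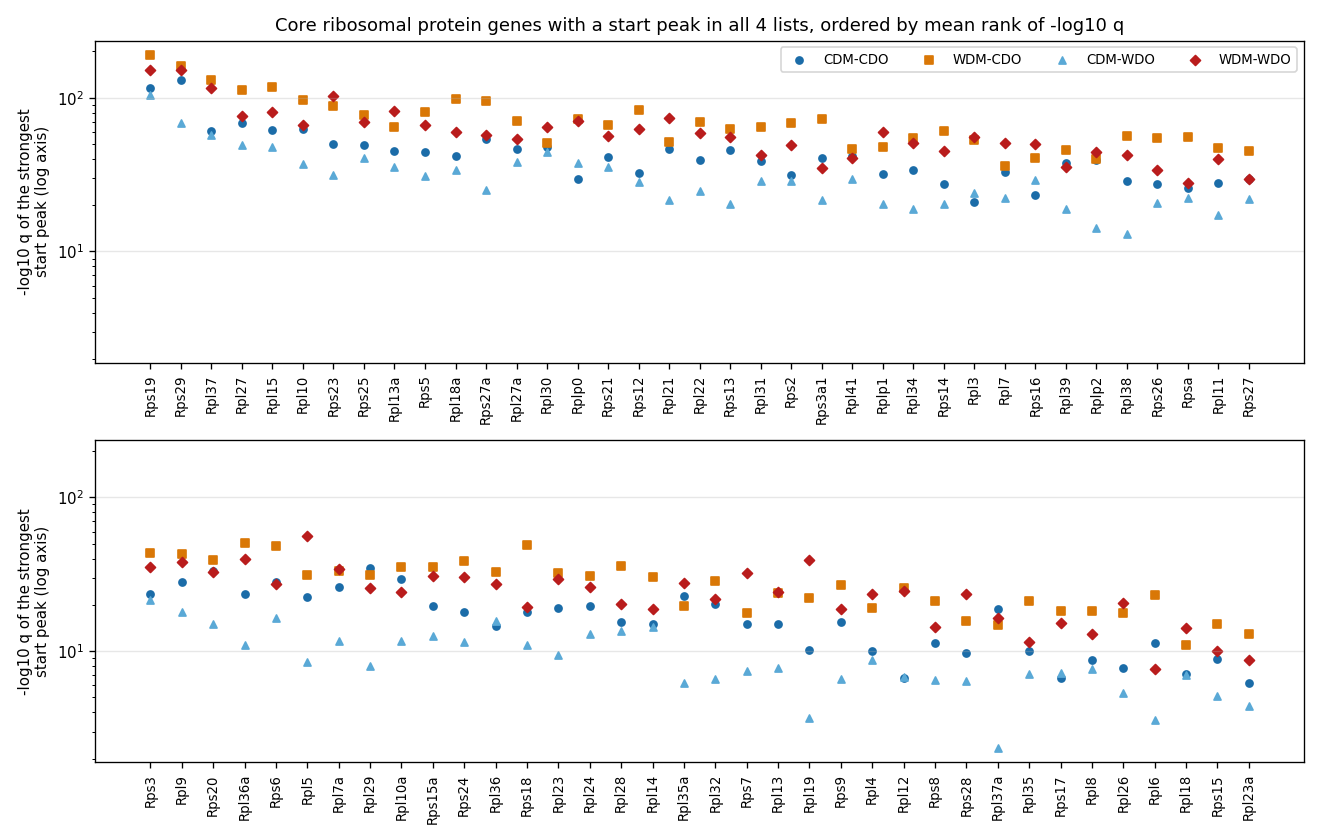
The −log10 q (vertical log axis) of the strongest start peak of the core genes shown, all with a start peak in all 4 lists, ordered by mean rank from Rps19 to Rpl23a over both panels, with 1 symbol per list. CDM-WDO lies lowest for most genes, and Rpl37a (2.36) has the lowest value.

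Pileups, the number of reads stacked at a summit, were recovered from the deposited fold and −log10 p. Over the 74 core genes with a start peak in all lists the median was 69.5, 98.5, 52 and 94.5 reads, against 70, 99, 55 and 81 over the 8295 genes of that kind. The medians of core genes were close to those of all genes in both CDO lists and in CDM-WDO, and above in WDM-WDO. CDM-WDO held the lowest of the 4 pileups at 67 of 74 core genes (90.5%), against 76.9% of all genes. WDM-WDO held the highest at 25 (33.8%), against 18.8%, and WDM-CDO at 48 (64.9%), against 77.5%. Pileups of all genes also differ between the lists. Ratios were therefore read against the median ratio of all genes with a start peak in both lists.

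The diet of the mothers was compared first in offspring on CD. The log2 ratio of pileup above background in WDM-CDO over CDM-CDO had a median of 0.59 over 81 members and 0.52 over all genes, a difference of 0.07. Of the members, 54 lay above the median of all genes and 27 below. The highest, relative to all genes, were Rpl12, part of the stalk base of the large subunit (+0.63, from 40 to 84 reads), Rps12 (+0.49, from 72 to 141) and Rpl3 (+0.48, from 57 to 110). The lowest were Rpl37a (−0.69, from 48 to 44), Rpl35a (−0.54, 53 in both) and Rpl29 (−0.48, from 79 to 82). The median of the family was thus close to that of all promoters, with single genes on both sides.

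In offspring given WD again, the ratio of WDM-WDO over CDM-WDO had a median of 0.83 over 78 members and 0.59 over all genes, a difference of 0.24. In folds these medians were 1.776 and 1.502. Of the members, 65 lay above the median of all genes, 39 above the upper quartile of all genes, and none below the lower quartile. Rpl19, a large-subunit gene, had the highest ratio in this pair, with 30 reads in CDM-WDO and 103 in WDM-WDO (+1.40 relative to all genes). Rpl5, which binds 5S ribosomal RNA and the p53 regulator Mdm2, went from 31 to 104 (+1.35), and Rpl37a from 19 to 49 (+1.08). Among genes called in both lists, the family thus had a larger median ratio than all promoters, and so had each subunit. The difference was 0.27 over large-subunit and 0.24 over small-subunit core genes. Genes not called in CDM-WDO have no ratio. Of those with a start peak in WDM-WDO, 78 of 81 members, 52 of 74 mitochondrial ribosomal protein genes and 8500 of all 10562 genes entered. The part of this loss in the differences was not tested.

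The members with the smallest ratio in this pair were Rpl14 (−0.19, from 48 to 62 reads), Rpsa, also known as the laminin receptor (−0.19, from 60 to 78), and Rps19 (−0.17, from 186 to 247). Rps29, tied with Rps19 in mean rank but with fewer reads in CDM-WDO, lay at +0.35, from 126 to 237 reads. Ribosome assembly genes had a difference of 0.18, translation factors 0.13 and mitochondrial ribosomal protein genes 0.12, while housekeeping genes were at −0.02. A list of other genes with an oligopyrimidine tract or of ribosome partners, such as Rack1, Tpt1 and Npm1, was also at −0.02, with 3 of its 7 genes above the median of all genes and 4 below. With fold enrichment over local background in place of pileup, the difference for the ribosomal protein genes was 0.12. Against genes with promoter GC content in the range of the members it was 0.16. Without the 9 members whose summit lies nearer to another gene it was 0.26. Macrophage markers with a start peak numbered 3 in CDM-WDO and 11 in WDM-WDO and lymphocyte markers 1 and 7. The part of these cells in the ratio was not tested.

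**Figure D3:**
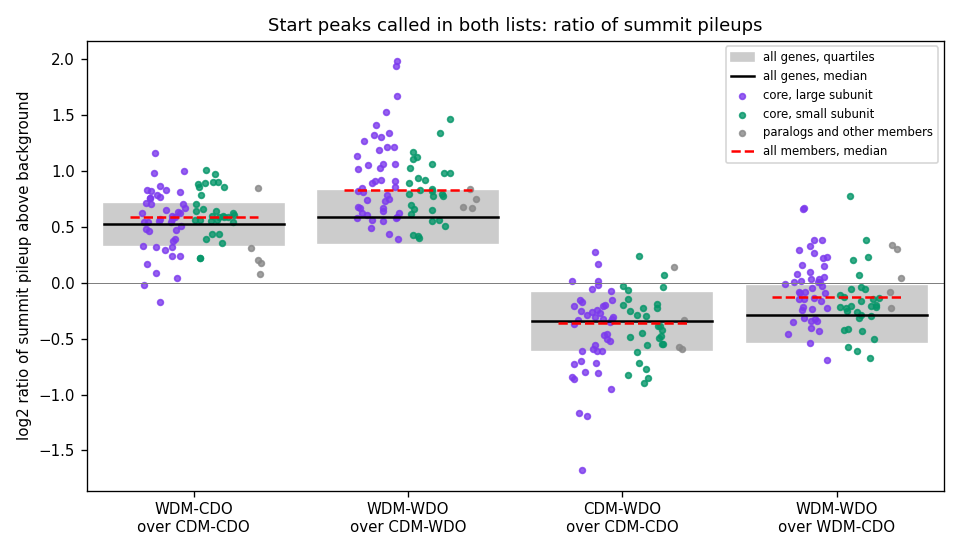
The log2 ratio of summit pileup above background (vertical axis) for members with a start peak in both lists of each of the 4 pairs (points: purple large subunit, green small subunit, grey other members; red dashed line: median of members), with the median (black line) and quartiles (grey box) of all genes. In WDM-WDO over CDM-WDO the members' median is 0.83 and that of all genes 0.59, with no member below the grey box.

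For the diet of the offspring, CDM-WDO over CDM-CDO had a median of −0.36 over the 78 members and −0.34 over all genes, a difference of −0.02. Of the members, 38 lay above the median of all genes and 40 below. Rplp0, the stalk protein (+0.62, from 73 to 88 reads), Rps16 (+0.58, from 62 to 73) and Rpl3 (+0.51, from 57 to 64) were highest. Rpl37a (−1.34, from 48 to 19), Rpl29 (−0.85, from 79 to 38) and Rpl35a (−0.82, from 53 to 27) were lowest. The median of the family was thus close to that of all promoters, with these 3 large-subunit genes at the low end. The same 3 were lowest in WDM-CDO over CDM-CDO. Both ratios divide by the CDM-CDO pileup, so the repeat is not a separate observation.

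With mothers on WD, the ratio of WDM-WDO over WDM-CDO was −0.13 over 81 members and −0.29 over all genes, a difference of 0.17, and 62 members lay above the median of all genes. Rps7, a small-subunit protein that also binds Mdm2, had 43, 50, 33 and 82 reads (+1.07 in this pair). Rpl5 had 54, 67, 31 and 104 (+0.96) and Rpl19 had 41, 67, 30 and 103 (+0.95). All 3 genes had their highest pileup in WDM-WDO and their lowest in CDM-WDO. They were named for their ratio in this pair, and CDM-WDO was lowest at 67 of 74 core genes, so this order is not a separate result. The lowest ratios were those of Rpl6 (−0.40, from 57 to 38), Rps18 (−0.38, from 120 to 78) and Rps3a1 (−0.32, from 132 to 89). With fold enrichment the difference for the family in this pair was 0.04. By pileup it was 0.24 over large-subunit and 0.09 over small-subunit core genes. Mitochondrial ribosomal protein genes had a difference of 0.13, ribosome assembly genes 0.13 and housekeeping genes 0.11. Translation factors were at 0.03, and the list of other genes with an oligopyrimidine tract or of ribosome partners at −0.04. A higher median ratio than all genes was thus not particular to the family in this pair. The pair shares its lists with the maternal comparisons, and the lists differ in the tags 08w and 12w as well as in diet.

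Split by promoter motif, the 22 core genes with CCGGAAG and a start peak in both WDO lists had a median log2 ratio of 0.71 in WDM-WDO over CDM-WDO, and the 33 without it 0.98. Genes with and without the pyrimidine tract were at 0.84 and 0.82. Those with and without TCTCGCGA were at 0.80 and 0.82. Those with and without GGGCGG were at 0.75 and 0.89. Carriers of the ETS motif stood furthest from the rest, with the smaller ratio, and this difference was not tested. Carriers of CCGGAAG also had stronger start peaks in CDM-WDO (median percentile of −log10 q 79.0 against 69.7), as had carriers of GGGCGG (80.9 against 66.9). Carriers of TCTCGCGA or of the tract had weaker ones. The part of peak strength in these ratios was not tested. In WDM-CDO over CDM-CDO the genes with and without CCGGAAG were at 0.63 and 0.57.

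Peaks of the family sat over the start. For the members with an annotated start, the median distance of the summit from the start was −8, −20, −36 and −24 bp, where negative is upstream. The median distance regardless of side was 88.5, 77, 85 and 68 bp, against 114, 105, 111 and 114 bp for all genes. The start lay inside the peak for 98.4%, 100%, 94.9% and 98.4% of the members with a start peak, against 87.2%, 88.4%, 85.7% and 85%. The median distance of ribosomal protein peaks was thus smaller than that of all genes in each list. Ribosome assembly genes had 103, 71, 45 and 69 bp, below the members in WDM-CDO and CDM-WDO. Translation factors were below the members in WDM-CDO only, but their annotated start lay inside the peak for 100% in every list. Mitochondrial ribosomal protein genes had a larger median distance than the members in each list. A summit near the start was thus not particular to the family. Median widths of the members' start peaks were 825, 912, 671 and 953 bp, against 813.5, 843, 687 and 821 bp for all genes. The narrowest peaks were those of CDM-WDO, for the members as for all genes.

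**Figure D4:**
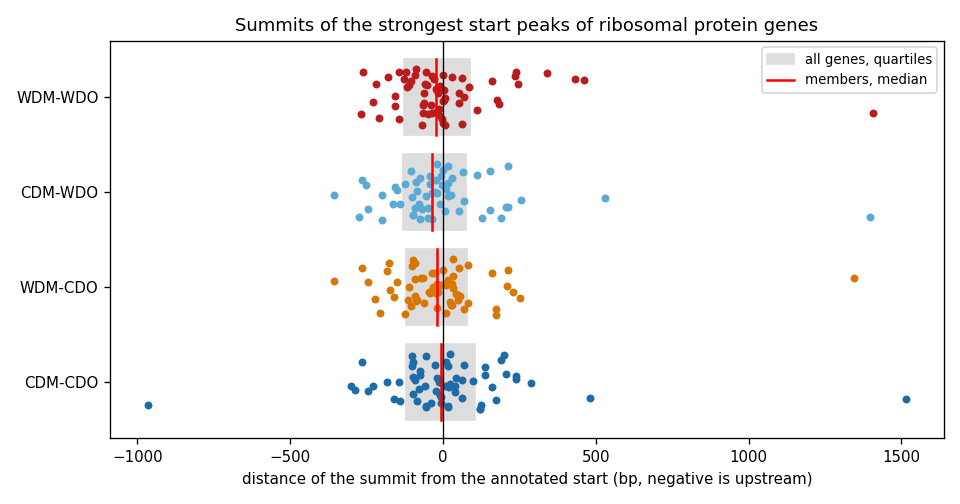
Distance in bp of the summit of the strongest start peak from the annotated start (horizontal axis, negative is upstream) for members with an annotated start, in each of the 4 lists, with the quartiles of all genes (grey) and the median of the members (red). Most points lie near the start, and the points at 1344 to 1515 bp belong to Rpl41.

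Shifts of the summit between lists were computed for members with an annotated start, 59 to 62 per pair. The median shift was 34.5 bp between WDM-CDO and CDM-CDO, 45 bp between WDM-WDO and CDM-WDO, 43 bp between CDM-WDO and CDM-CDO and 32 bp between WDM-WDO and WDM-CDO. Over all genes with an annotated start it was 48, 49, 54 and 46 bp. None of these members had strongest start peaks that failed to overlap, against 1.04%, 1.42%, 1.27% and 1.73% of all such genes. For these members, the strongest start peaks of a gene thus overlapped in each of the 4 pairs. With 59 to 62 members per pair, a count of 0 is close to the shares of all such genes. Over the 4 lists, the range of a core gene's summits had a median of 81.5 bp, and 30 of 74 core genes ranged over more than 100 bp. This range was not computed for all genes. Between the lists of a pair, 17.5%, 25.5%, 23.6% and 19.3% of core genes with an annotated start moved over 100 bp, in the same order of pairs. Over all such genes the shares were larger, at 26.5%, 27.3%, 29.9% and 26.9%.

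The widest ranges were those of Rpl4 (436 bp), Rpl37a (316 bp), Rpl6 (300 bp), Rpl8 (285 bp) and Rpl11 (255 bp), all of the large subunit. The summit of Rpl4 stood at 22, 161, −275 and −40 bp from its start. In CDM-WDO it was 8 bp from the start or end of Zwilch, the neighbouring gene. At Rpl37a the summits were at 61, 173, −76 and 240 bp, inside peaks of 801, 1142, 531 and 1015 bp. In both genes the summit in CDM-WDO was the most upstream of the 4, in the narrowest peak. Rpl12 had summits 162, 10, 155 and 8 bp from its start, close to it in both WDM lists and further downstream in both CDM lists.

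Some of these promoters are shared. In WDM-CDO, 16 of 81 start peaks had the start or end of another protein-coding gene within 1 kb of the summit, and for 9 the other gene was nearer. The 9 were Rpl7a with Med22, Rpl9 with Lias, Rpl18 with Sphk2, Rps25 with Trappc4, Rpl41 with Zc3h10, Rpl15 with Nkiras1, Rpl37 with Card6, Rps18 with Vps52 and Rpl36 with Micos13. A peak there cannot be assigned to 1 of both genes. Rpl41, the smallest ribosomal protein, lay with Zc3h10 in 1 broad peak of 2019, 2172 and 2085 bp in CDM-CDO, WDM-CDO and WDM-WDO. In CDM-WDO this was divided into a peak of 1108 bp at Zc3h10 and one of 337 bp with its summit 23 bp before the start of Rpl41. The region was thus listed as open in all groups, with a gap in CDM-WDO alone.

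Second peaks within the window were few, with 7, 8, 5 and 8 members holding 2. Rpl12 had a second peak in WDM-CDO, 1353 bp from the annotated start with −log10 q of 8.92. Rpl4 had one in every list beyond the end of the gene, at Snapc5, with −log10 q of 30.2, 64.4, 25.5 and 48.4, above its own start peak (10.006, 19.1, 8.80 and 23.6). The second peaks of Rps18 and Rpl36 were missing in CDM-WDO, and that of Rps9 was found in both WDM lists. Between the CDO lists, only the paralogs Rpl10l and Rpl37rt differed in having a peak at all, and no core gene did. Between the WDO lists, this was so for the core genes Rps10 and Rps4x and for Rps19bp1, and for no paralog. Members with 2 peaks numbered 5 in CDM-WDO and 8 in WDM-WDO. The share of all genes with a second peak is not given here, so these counts are a description of the members alone.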

How the data were processed

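ATAC-seq of mouse aortic endothelial cells was deposited as 1 narrowPeak list per diet group, 4 lists for 8 samples. Per the submitters' processing notes, reads were processed on GRCm38 (mm10) with MACS2 2.2.9.1, Bowtie2 2.4.5, SAMtools 1.13, Trim Galore 0.6.10, FastQC 0.12.1 and deepTools 3.5.4 (named without settings or order). Pooling of the 2 samples of a group and any shift of read ends at the transposase cut are not given in the sources used here. For each peak, the authors deposited a fold enrichment (a ratio) and its −log10 p and −log10 q, used as they stand. The deposited score column was not used, and the summit offset was used as deposited. The lowest −log10 q was 1.30 to 1.31 in the lists.

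From these values the summit pileup was recovered as the whole number that gives both the fold, with 1 read added to pileup and background, and the Poisson −log10 p (relative tolerance 0.0001, 100% of peaks). The lowest background of a list (4.84, 5.59, 5.49 and 6.08 reads in the order CDM-CDO, WDM-CDO, CDM-WDO, WDM-WDO) was subtracted for ratios. Lowest called pileups were 14, 15, 15 and 16. Read totals per sample were not used here, and pileups mix depth with enrichment over background. The lowest background was smallest in CDM-CDO (4.84), while the median pileup was smallest in CDM-WDO (31 reads). No test was possible with 1 list per group.

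Genes came from RefSeq GRCm38.p6, and starts and strands from its promoter table, with either gene end used for genes outside it. Overlap was at least 1 bp with a window of 1 kb, on chromosomes 1 to 19 and X. Motif counts used the first listed start of each gene, and distances the nearest of its starts. Scripts (Python 3.11.15, numpy 2.4.6, pandas 2.3.3, scipy 1.17.1) were tested on simulated lists. Genes named are members without a peak in some list, the 5 strongest and 5 weakest, the 3 highest and 3 lowest ratios per pair, members with the most variable peak number or with summits moving over 100 bp (the 5 widest and those in other comparisons), and all paralogs. Rps28 and Rps6 are also shown for their sequence. The members, lists and rules were chosen with earlier results of these data known. The alternatives tried were other windows, stricter q values, lists of equal length, core genes alone, fold or rank in place of pileup, and, chosen after seeing the data, other reference genes. Some items are not reported here.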

Additional observations from a re-analysis of the deposited data

Results flagged for a closer look

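The number of members with a peak within 1 kb of the span changed by −2 from CDM-CDO to WDM-CDO and by 3 from CDM-WDO to WDM-WDO. The shares of all genes were higher with mothers on WD in both pairs (57.2% and 61.2%, 49.9% and 58.2%). The −2 became 0 with a window of 5 kb (87 in both lists), at a −log10 q of at least 5 (83 in both) and with core genes only (77 in both), so the opposite sign holds only under part of the settings. The number with a start peak changed by the same −2 and 3. The −2 comes from the paralogs Rpl10l and Rpl37rt, and the 3 from Rps10, Rps4x and Rps19bp1. The median pileup ratio of members minus that of all genes, WDO over CDO, was −0.020 with mothers on CD and 0.17 with mothers on WD. None of these differences was tested, since each group has 1 list.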

How the results depend on the processing

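The counts of members with a peak or start peak, and the median summit distances, stayed within 1.5 times or the stated spread under every alternative run. Some counts on 1 side of a pair moved. The 2 members in CDM-CDO and not WDM-CDO became 1 when the peak had to overlap the span, 1 with a window of 5 kb, 1 with lists of equal length, and 0 at a −log10 q of at least 5 or with core genes only. With the window of 5 kb, the count in WDM-CDO and not CDM-CDO was 1 rather than 0, and that in WDM-CDO and not WDM-WDO 4 rather than 0. At a −log10 q of at least 5, 7 rather than 3 were in WDM-WDO and not CDM-WDO. With core genes only, an alternative chosen after seeing the data, 2 rather than 5 were in CDM-CDO and not CDM-WDO. Fold enrichment in place of pileup took the ratio of members minus all genes from 0.24 to 0.12 in WDM-WDO over CDM-WDO and from 0.17 to 0.039 in WDM-WDO over WDM-CDO. Against genes of like promoter GC, also chosen after seeing the data, the former was 0.16. The −0.02 of CDM-WDO over CDM-CDO turned to 0.034 against genes of like pileup and 0.014 against genes of like GC. The cause of these moves was not tested. No paired analysis was possible because each group has 1 list, in which the replicate numbers do not appear, and no replicate could be left out. The calls were limited to summits of at least 14 to 16 reads.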
